A study of Mus musculus with 9 samples.

Results

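The genes described here are those of the cytosolic ribosomal proteins, taken as every row of the expression table whose symbol starts with Rpl or Rps followed by a digit, or is Rplp0, Rplp1 or Rplp2, without the Rps6k kinases and without symbols of pseudogenes. The rule found 87 of the 24321 genes in the table. They comprised 43 genes of the large subunit, 30 of the small subunit, 3 of the P stalk of the large subunit, 10 paralogs or retrogenes, and Rps19bp1, which encodes a binding partner of a ribosomal protein and is not part of the ribosome. The first 3 classes, 76 genes in all, are called core members below. Meningeal lymphatic endothelial cells (MLECs) were compared between groups of male C57BL/6 mice 10 weeks old. The mice had received PBS (Control), GL261 glioma cells or B16 melanoma cells. By the sample labels the last 2 were given about 3 weeks and 2 weeks before collection. The results of the study give 2 weeks for all groups, and its methods give 2 to 3 weeks. Each group had 3 RNA-seq libraries, each made from 10 cells sorted from a pool of 6 mice. The p-values therefore measure the spread between libraries, in which differences between pools and the sampling of 10 cells cannot be told apart. The sample labels place the injection in the cisterna magna, whereas the methods of the study describe an injection under the dura with other cell numbers. The labels name CD31, CD45 and LYVE-1 as the stains of the sort, whereas the results of the study describe a gate on CD45, CD31 and PDPN.

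Ribosomal proteins form the protein part of the 2 ribosomal subunits: the small subunit decodes the mRNA and the large subunit joins the amino acids. The mRNAs of ribosomal proteins are among the most abundant in a dividing cell, and their copy numbers are kept in balance because nearly every protein is needed in equal number. Most of these mRNAs begin with a C followed by a run of pyrimidines, the 5′ terminal oligopyrimidine (TOP) motif, through which mTOR signaling controls their translation.

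The start of 8 of these genes is shown from the RefSeq promoter table (build GRCm38.p6), as 30 bases before and 25 bases from the annotated start. The first 5 genes passed the test between GL261 and Control MLECs described below and the last 3 did not, and capitals mark the longest run of C and T within 20 bases of the start.
Rpl38: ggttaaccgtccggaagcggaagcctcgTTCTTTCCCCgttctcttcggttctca
Rpl27: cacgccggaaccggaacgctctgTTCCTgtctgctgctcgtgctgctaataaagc
Rps18: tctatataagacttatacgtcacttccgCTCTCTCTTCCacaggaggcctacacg
Rps10: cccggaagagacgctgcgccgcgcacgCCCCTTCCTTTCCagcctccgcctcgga
Rps27: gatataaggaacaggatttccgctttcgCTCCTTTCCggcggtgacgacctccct
Rpl35: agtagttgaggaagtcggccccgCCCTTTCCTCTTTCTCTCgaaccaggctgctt
Rpl5: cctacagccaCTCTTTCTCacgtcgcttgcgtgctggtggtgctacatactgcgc
Rps3: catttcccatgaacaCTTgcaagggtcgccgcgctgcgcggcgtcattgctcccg
The windows lie at chr11:114668550-114668604 on the plus strand for Rpl38, chr11:101442215-101442269 on the plus strand for Rpl27, chr17:33955641-33955695 on the minus strand for Rps18, chr17:27635220-27635274 on the minus strand for Rps10 and chr3:90213624-90213678 on the minus strand for Rps27. Those of the other genes lie at chr2:39005107-39005161 on the minus strand for Rpl35, chr5:107900498-107900552 on the plus strand for Rpl5 and chr7:99483685-99483739 on the minus strand for Rps3. The run spanned 10 bases in Rpl38, 11 in Rps18, 13 in Rps10 and 18 in Rpl35, and 3 bases in Rps3. Among genes not shown, it spanned 3 bases in Rpl41, which passed, and 11 in Rpl28, which did not.

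Of the 76 core members, 56 had an entry in the promoter table. A run of at least 8 pyrimidines on the sense strand within 20 bases of the start was found in 26 of these 56 (46.4%) and in 15.9% of all 27025 promoters. The letters CCGGAAG, which ETS factors recognise, stood on either strand of the window of 300 bases in 22 of 56 core members (39.3%) and in 9.12% of all promoters. The letters GGGCGG, the core of an Sp1 site, were found on either strand in 33 of 56 (58.9%) against 35.9%, AAGATGGC on either strand in 4 of 56 (7.14%) against 2.88%, and TATAAA on the sense strand in 5 of 56 (8.93%) against 8.88%. The pyrimidine run was present in 9 of the 20 core members with a promoter that passed the test between GL261 and Control MLECs, and in 17 of the 36 that did not.

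The ribosomal protein genes made up a large share of the measured RNA, and all 6 tumor-associated libraries stood above all 3 Control libraries. The summed FPKM (fragments mapped to a gene relative to transcript length and library size, a level per length) was 108535, 114289 and 96342 in the Control libraries, 184326, 181156 and 172395 in the GL261 libraries and 134899, 143496 and 150884 in the B16 libraries. The 3 groups did not overlap. The mean sum was 106389 ± 9164 (SD, n = 3) in Control, 179292 ± 6180 in GL261 and 143093 ± 8000 in B16 MLECs, so that GL261 was 1.69-fold and B16 1.345-fold above Control. The FPKM of all other genes together were 1.16-fold and 1.06-fold above Control in the same libraries.

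As a share of the total FPKM of a library, the members held 16.3%, 16.5% and 14.8% in Control, 22.0%, 20.4% and 22.4% in GL261 and 17.8%, 20.4% and 19.7% in B16 MLECs. No tumor-associated library fell into the range of Control, and the ranges of GL261 and B16 overlapped. The share depended on a few abundant RNAs. Rnu12, a small nuclear RNA, was listed at 7.41% of the total FPKM in GL261 replicate 2 and at 11.1% in B16 replicate 1, and at 0 in the other 7 libraries. The 6 copies of Ccl21, a chemokine gene of lymphatic endothelium, held between 8.79% and 11.3% of the total in Control, between 0.177% and 0.724% in GL261 and between 1.02% and 3.14% in B16 libraries. With the Ccl21 copies left out of the total, the mean share was 17.6% ± 1.1 in Control, 21.7% ± 1.1 in GL261 and 19.7% ± 1.2 in B16 MLECs, and the lowest B16 library (18.3%) fell below the highest Control library (18.6%). With Rnu12 left out as well, the lowest B16 library was at 20.1% and the 3 groups were separate.

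**Figure D1:**
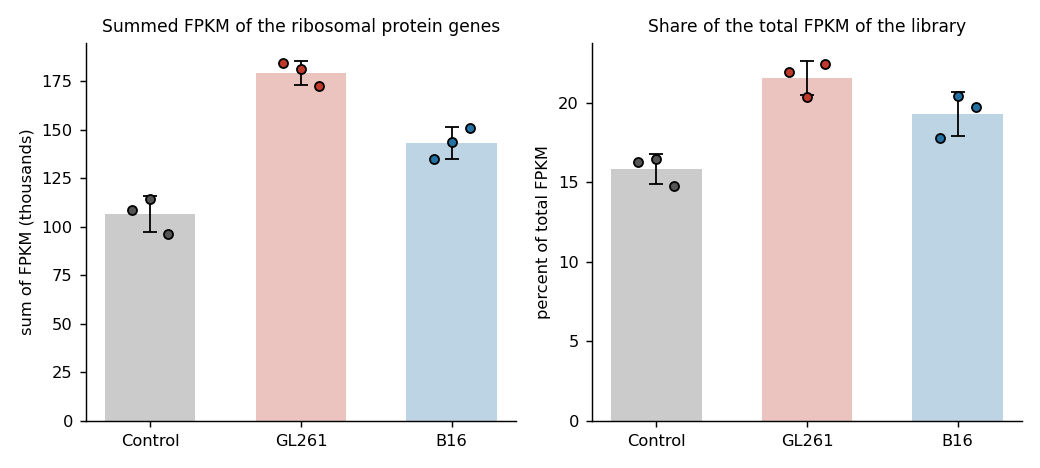
Summed FPKM of the 87 ribosomal protein genes in units of 1000 (left) and their share of the total FPKM of the library in percent (right) for 3 Control, 3 GL261 and 3 B16 libraries. Points are libraries, bars are means and whiskers are SD; the sums of the 3 groups do not overlap, and the shares of GL261 and B16 do.

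The sums of the large and the small subunit differed between the groups by like factors. The summed FPKM of the large subunit genes was 48976 ± 3857 in Control, 82394 ± 2034 in GL261 and 66334 ± 3974 in B16 MLECs, and that of the small subunit genes was 48073 ± 5137, 81123 ± 4067 and 65261 ± 2779. The ratio of the small to the large subunit sum was 0.980 ± 0.029 in Control, 0.984 ± 0.027 in GL261 and 0.985 ± 0.028 in B16 MLECs. These ratios differed between the groups by less than the SD within a group. The P stalk genes summed to 7005 ± 354, 12031 ± 251 and 8864 ± 950.

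Within a library the core members spanned a wide range although the ribosome holds about equal numbers of their proteins. The highest was Rps27, a zinc finger protein of the small subunit (mm9 chr3:90016593-90017573), with a mean of 9634 FPKM over the 9 libraries, followed by Rpl41, Rpl32, Rpl35 and Rplp1. The lowest were Rps15a, Rpl30, Rpl22, Rpl26 and Rpl5, and Rps15a, at 77.6 FPKM, was 124-fold below Rps27. The 10 highest core members held 35.0% of the summed FPKM of all members. Of the 76 core members, 40 were among the 100 highest genes of the table and 68 among the 200 highest. Ribosomal protein genes have many processed pseudogenes, and how reads shared with them were assigned is not given in the sources used here, so that the level of a single member is less certain than its differences between libraries. The order of the 76 core members was alike in all libraries, with Spearman's rho across genes between 0.857 and 0.928 for 2 Control libraries, between 0.972 and 0.980 for 2 GL261 libraries and between 0.846 and 0.952 for a Control and a GL261 library. Genes are not independent replicates, and these values are a description. The median coefficient of variation of a core member was 19.1% in Control, 8.69% in GL261 and 11.9% in B16 MLECs, and it was highest in Control for 51 of 76. The 3 Control libraries were also the 3 with the fewest aligned reads, so that depth and tumor status cannot be told apart here.

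Single genes were tested with limma on log2(FPKM + 1), with Benjamini-Hochberg adjustment over the 9955 genes that had at least 1 FPKM in at least 3 libraries, and a gene is said to have risen or fallen where the adjusted p was below 0.05. Of the 87 members 84 were tested, among them all 76 core members, and the 3 left out were Rpl3l, Rpl10l and Rps27rt. Between GL261 and Control MLECs 2.58% of all tested genes rose and 0.904% fell. Of the 84 tested members 30 rose and 0 fell. They comprised 14 genes of the large subunit, 13 of the small subunit, 2 of the P stalk and the paralog Rpl36al. The difference was positive for 83 of 84 members, against 57.5% of all genes, and all 3 GL261 libraries were above all 3 Control libraries for 62 of 84, against 13.7% of all genes. They were all below for 0 of 84, against 8.84% of all genes. The median difference of the members was 0.75 (log2), and that of all genes tested was 0.23, which is 0.52 lower. The median of all genes depended on the filter. Among the 4525 genes above 0 in all libraries it was -0.03, and that of the members was still 0.75. Between 7303 and 8688 genes were above 0 in a Control library and between 9456 and 10852 in a GL261 library.

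The largest rise was that of Rpl38, a small protein of the large subunit known for a role in the translation of Hox mRNAs (mm9 chr11:114529838-114533645). It was at 1659, 2287 and 884 FPKM in Control, 5249, 3477 and 5348 in GL261 and 1538, 3257 and 3619 in B16 libraries. The GL261 libraries were above all Control libraries, whereas the B16 libraries overlapped with both. The difference between GL261 and Control was 1.62 ± 0.37 (SE, adjusted p = 0.0378, limma), and that between B16 and Control was 0.81 ± 0.37 (adjusted p = 0.334). Rpl38 kept its call in 7 of 25 alternative fits, and its difference from Control was 0.0066 (log2) with the aligned reads as a covariate.

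Rpl36a, an X-linked gene of the large subunit (mm9 chrX:131120193-131122601), was at 798, 669 and 1000 FPKM in Control, 1922, 1858 and 1836 in GL261 and 944, 1047 and 1087 in B16 libraries. It was higher by 1.21 ± 0.20 in GL261 than in Control MLECs (adjusted p = 0.00704, limma). The GL261 libraries lay close together and above all others, and the B16 libraries were near those of Control (0.34 ± 0.20, adjusted p = 0.452). Its paralog Rpl36al rose between GL261 and Control by a like amount, 1.22 ± 0.29 (adjusted p = 0.0424), from 452 ± 139 to 1035 ± 206 FPKM.

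Rpl32, a surface protein of the large subunit (mm9 chr6:115755523-115758765), was at 3383, 3247 and 2601 FPKM in Control, 6045, 7134 and 6047 in GL261 and 4677, 5273 and 5346 in B16 libraries. No library overlapped with those of another group. The difference from Control was 1.06 ± 0.14 in GL261 (adjusted p = 0.00264, limma) and 0.74 ± 0.14 in B16 (adjusted p = 0.0252). Rpl27 rose in GL261 MLECs by 1.27 ± 0.24 (adjusted p = 0.0146), Rpl39, which lines the exit tunnel, by 1.10 ± 0.22 (adjusted p = 0.0180), Rpl23 by 1.00 ± 0.24 (adjusted p = 0.0440) and Rpl35a, one of the genes mutated in Diamond-Blackfan anemia, by 0.97 ± 0.23 (adjusted p = 0.0389).

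Rpl28 had a difference of 1.44 ± 0.40 between GL261 and Control, which missed the threshold (adjusted p = 0.0779, limma), and its Control libraries ranged from 341 to 1219 FPKM. At the other end stood Rpl3, which lies at the peptidyl transferase center, with 811, 751 and 584 FPKM in Control, 767, 682 and 905 in GL261 and 754, 612 and 774 in B16 libraries. The libraries of the 3 groups overlapped, and the difference between GL261 and Control was 0.14 ± 0.22 (adjusted p = 0.810). Rpl21 (0.09 ± 0.25) and Rpl30 (0.03 ± 0.79) overlapped between the groups as well. Rpl30 varied from 20.9 to 223 FPKM within B16 MLECs and was the least precise of the core members.

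In the small subunit, Rps18, which sits in the head of the subunit (mm9 chr17:34088944-34092946), was at 2213, 2349 and 1976 FPKM in Control, 4462, 4692 and 3906 in GL261 and 3056, 2943 and 3604 in B16 libraries. The libraries fell into 3 separate ranges in the order Control, B16 and GL261. Its rise in GL261 was 1.00 ± 0.15 (adjusted p = 0.00489, limma), and its difference in B16 was 0.55 ± 0.15 (adjusted p = 0.0874).

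Rps10 (mm9 chr17:27767367-27773574) was at 783, 726 and 755 FPKM in Control, 1626, 1638 and 1327 in GL261 and 1232, 1308 and 1556 in B16 libraries. Both tumor groups were above Control and overlapped with each other. It rose by 1.01 ± 0.18 in GL261 (adjusted p = 0.0133, limma) and by 0.85 ± 0.18 in B16 (adjusted p = 0.0388). Rps15 rose by 1.05 ± 0.22 in GL261 (adjusted p = 0.0256), and in B16 its difference of 0.94 ± 0.22 lay just outside the threshold (adjusted p = 0.0542).

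Rps27, the most abundant member, was at 6838, 8473 and 5530 FPKM in Control, 11347, 12382 and 13026 in GL261 and 10563, 10005 and 8542 in B16 libraries. The groups did not overlap, and the rise in GL261 was 0.84 ± 0.15 (adjusted p = 0.0133, limma). Rps27a, which is made as a fusion with ubiquitin, rose by 0.83 ± 0.19 in GL261 (adjusted p = 0.0341) and was 0.17 ± 0.19 above Control in B16 (adjusted p = 0.722). Rps6, the substrate of the S6 kinases downstream of mTOR, was at 831, 562 and 641 FPKM in Control, 1301, 1503 and 992 in GL261 and 887, 944 and 1134 in B16 libraries. Every tumor-associated library was above every Control library, and the difference between GL261 and Control was 0.90 ± 0.23 (adjusted p = 0.0616). Rps4x, X-linked like Rpl36a, was at 967 ± 313, 1489 ± 71.5 and 973 ± 170 FPKM in the 3 groups (0.67 ± 0.24 between GL261 and Control, adjusted p = 0.170). Rps3, which faces the mRNA entry channel and also acts in DNA repair, was at 664, 749 and 620 FPKM in Control, 688, 730 and 663 in GL261 and 637, 700 and 849 in B16 libraries. Its libraries overlapped in all 3 groups, and the difference between GL261 and Control was 0.04 ± 0.21 (adjusted p = 0.956).

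The P stalk recruits the elongation factors to the ribosome and consists of Rplp0, to which dimers of Rplp1 and Rplp2 bind. Rplp1 was at 4355, 3381 and 3003 FPKM in Control, 6397, 6581 and 6824 in GL261 and 3590, 4247 and 4946 in B16 libraries. Rplp2 was at 1828, 2272 and 1555, at 3534, 3491 and 3393, and at 2402, 2713 and 2452. Both rose in GL261 MLECs by 0.90 ± 0.17 (adjusted p = 0.0134 and 0.0133, limma), and in B16 they stood 0.26 ± 0.17 and 0.44 ± 0.17 above Control (adjusted p = 0.510 and 0.238). Rplp0, often used as a reference gene in qPCR, was at 1154, 1393 and 2074 FPKM in Control, 1838, 1984 and 2052 in GL261 and 1852, 2063 and 2326 in B16 libraries. The highest Control library lay above all 3 GL261 libraries, and the difference was 0.39 ± 0.22 (adjusted p = 0.397).

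**Figure D2:**
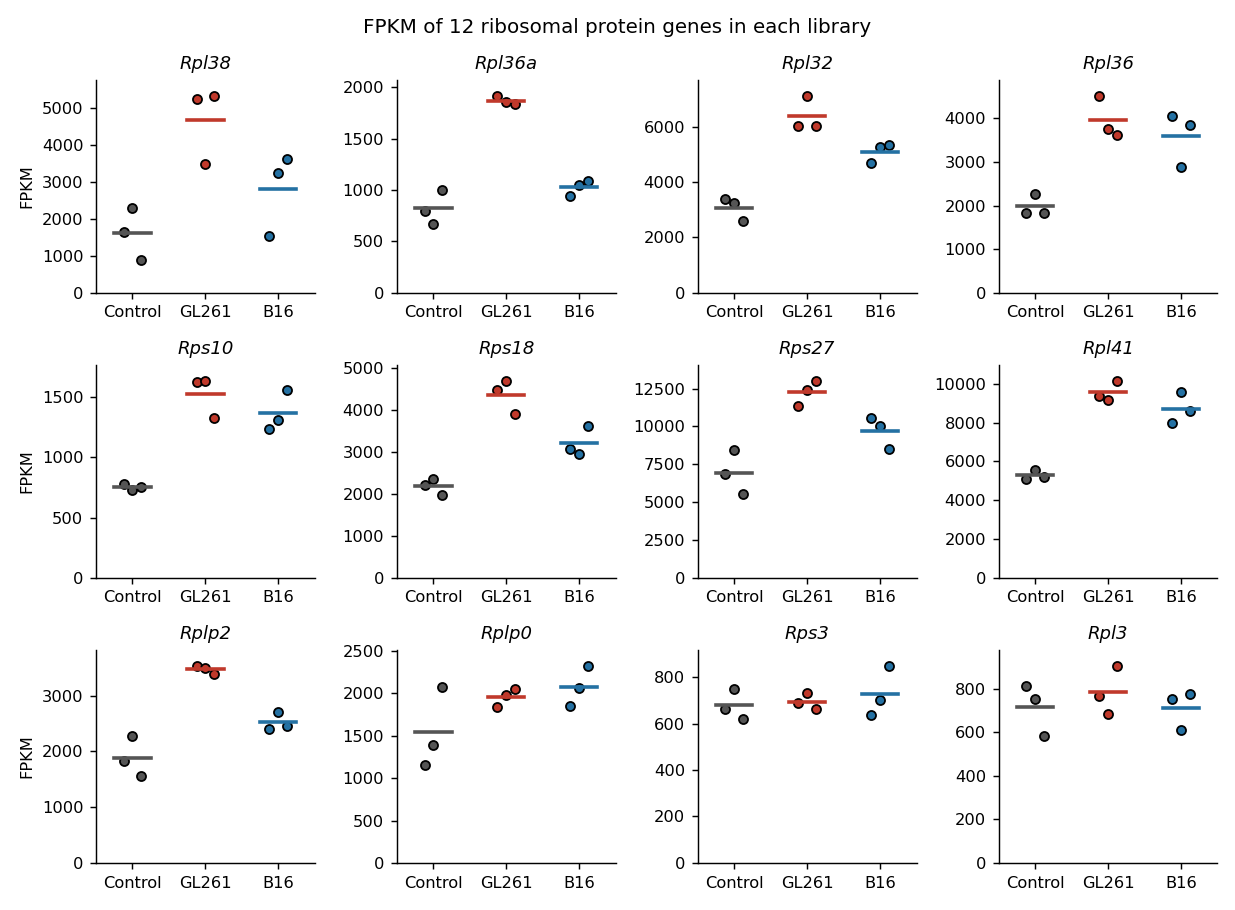
FPKM in each library of 12 ribosomal protein genes chosen after their values were seen, 1 panel per gene; points are libraries and lines are group means (n = 3). Rpl32, Rps18, Rps27 and Rplp2 fall into 3 separate ranges, Rpl36a is high in GL261 alone, and Rplp0, Rps3 and Rpl3 overlap between the groups.

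Between B16 and Control MLECs 1.61% of all tested genes rose and 0.502% fell. Of the 84 members 4 rose, Rpl41, Rpl32, Rpl36 and Rps10, and 0 fell. The difference was positive for 76 of 84 members, against 57.0% of all genes, and the B16 libraries were all above the Control libraries for 30 of 84, against 10.2% of all genes. The median difference was 0.42 for the members and 0.20 for all genes, and 0.42 and 0.002 among genes above 0 in all libraries. Rpl41, the smallest protein of the ribosome, was at 5077, 5568 and 5207 FPKM in Control, 9359, 9153 and 10158 in GL261 and 7950, 9552 and 8591 in B16 libraries. The ranges of both tumor groups lay far above that of Control, and the rise was 0.72 ± 0.11 in B16 (adjusted p = 0.00816, limma) and 0.85 ± 0.11 in GL261 (adjusted p = 0.00237). Rpl36 rose from 1979 ± 243 FPKM in Control to 3600 ± 632 in B16 MLECs (0.85 ± 0.18, adjusted p = 0.0316) and to 3967 ± 489 in GL261 (1.00 ± 0.18, adjusted p = 0.0112). Rpl14, at 0.91 ± 0.34, had a difference as large but did not pass (adjusted p = 0.237). The mean was below that of Control in B16 for 8 of the 76 core members. Rpl12, of the base of the stalk, was at 439, 597 and 685 FPKM in Control and 466, 360 and 543 in B16 libraries (-0.33 ± 0.26, adjusted p = 0.602), and Rpl7 was at 1111 ± 207 and 1013 ± 372 FPKM (-0.19 ± 0.27, adjusted p = 0.808).

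Between GL261 and B16 MLECs 0 of the 84 members passed the threshold in limma, as against 0.01% of all genes that were higher in GL261, and 25 of 84 had an unadjusted p under 0.05, against 5.5% of all genes. The difference was positive for 79 of 84 members, against 50.6% of all genes, and every GL261 library was above every B16 library for 39 of 84, against 7.13% of all genes, and below for 0 of 84, against 6.66%. The median difference was 0.33 for the members and 0.01 for all genes. By the labels GL261 cells had been injected about 3 weeks and B16 cells about 2 weeks before collection. With these times tumor type and time cannot be told apart. The largest difference of a core member was that of Rpl12, at 994, 822 and 1074 FPKM in GL261 and 466, 360 and 543 in B16 libraries. Its groups did not overlap, and the difference was 1.09 ± 0.26 (adjusted p = 0.253, limma). Rpl28 (0.96 ± 0.40), Rpl36a (0.87 ± 0.20) and Rpl38 (0.81 ± 0.37) followed. Rplp0 (-0.08 ± 0.22), Rps3 (-0.06 ± 0.21) and Rpl37a (-0.04 ± 0.17) were the 3 core members with a lower mean of log2(FPKM + 1) in GL261 than in B16.

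With GL261 and B16 joined into 1 tumor group, 2.9% of all tested genes rose against Control and 1.02% fell. Of the 84 members 14 rose and 0 fell. Rpl41, Rpl32, Rpl36, Rps10, Rps15, Rps19, Rps18, Rps27, Rpl27, Rpl10a, Rpl18 and Rpl6 were the 12 with the largest difference. For 30 of 84 members all 6 tumor-associated libraries were above all 3 Control libraries, against 6.08% of all genes, and for 0 they were all below, against 4.44%. Rps19, the gene most often mutated in Diamond-Blackfan anemia, was at 1651, 1914 and 1697 FPKM in Control, 3288, 3446 and 3051 in GL261 and 2277, 3215 and 3180 in B16 libraries. Its tumor-associated libraries were all above those of Control (0.80 ± 0.16, adjusted p = 0.0162, limma). Rpl10a rose by 0.82 ± 0.20 (adjusted p = 0.0345), Rpl18 by 0.69 ± 0.17 (adjusted p = 0.0369) and Rpl6 by 0.72 ± 0.18 (adjusted p = 0.0469). The 3 comparisons with Control share the same Control libraries. The mean FPKM was in the order Control, B16 and GL261 for 64 of the 76 core members. For 13 of them the 3 groups did not overlap in this order. The share of all genes in this order was not counted. The mean total FPKM stood in the same order, at 1.11-fold (B16) and 1.24-fold (GL261) that of Control.

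**Figure D3:**
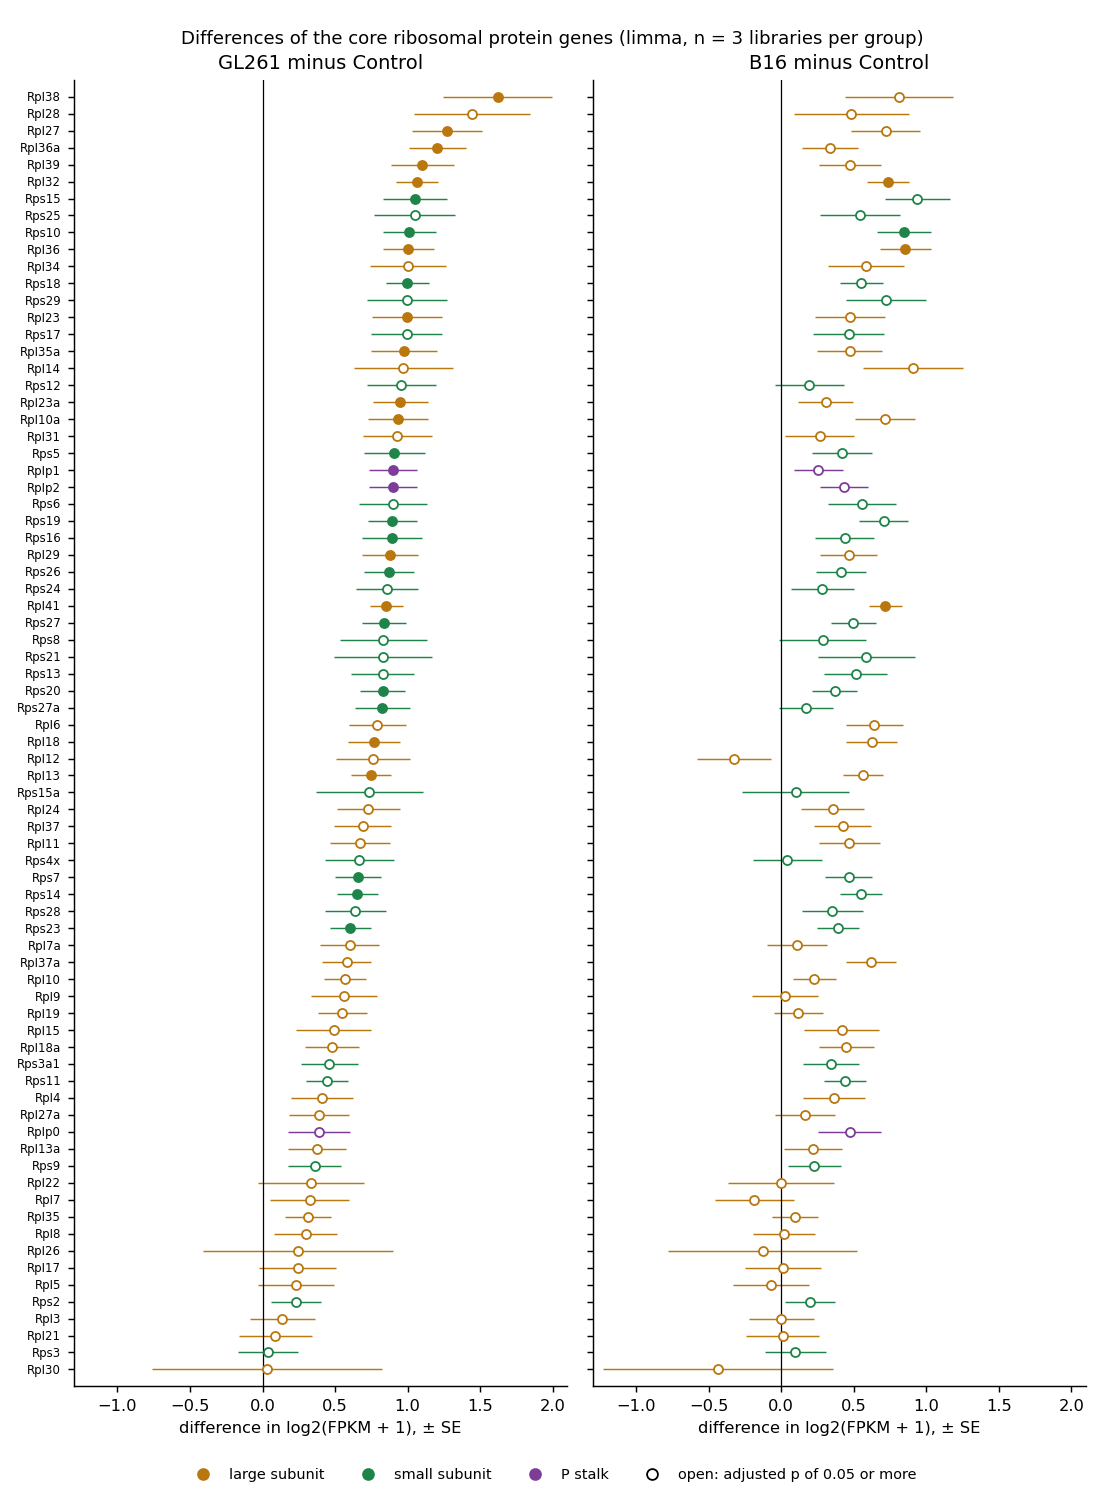
Difference in log2(FPKM + 1) of each of the 76 core members between GL261 and Control (left) and between B16 and Control (right), in the order of the left panel; points are estimates, whiskers are SE, and filled points passed the threshold (29 on the left, 4 on the right). All 76 estimates on the left and 70 of those on the right are above 0.

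These counts rested on few libraries. The 30 members that rose in GL261 became 5 without GL261 replicate 1, 5 without GL261 replicate 2, 12 without GL261 replicate 3 and 17 without Control replicate 3. The calls over all genes fell as well: the share of all tested genes that rose was 0.796%, 0.787%, 1.27% and 2.11% in these fits, and the share of the members was 5.95%, 6.02%, 14.3% and 20.5%. The 4 members that rose in B16 became 2 without Control replicate 1, 1 without Control replicate 3 and 2 without GL261 replicate 2. They became 1 without B16 replicate 2 and 1 without B16 replicate 3. In these fits between 0.634% and 1.6% of all tested genes rose. Without Control replicate 3 the share of the members, 1.2%, was below the 1.6% of all tested genes. The 14 members that rose in the joined tumor group became 5 without Control replicate 1 or 3, 7 without GL261 replicate 1 or 2, 9 without GL261 replicate 3 and 8 without B16 replicate 3, where between 1.89% and 2.62% of all tested genes rose. The median difference of the members stayed between 0.69 and 0.81 for GL261 and between 0.32 and 0.43 for B16 whichever library was left out. Without the 2 libraries in which Rnu12 was listed, GL261 replicate 2 and B16 replicate 1, an alternative chosen after seeing the data, 2 members (2.41%) rose in GL261 and 1 (1.2%) in B16, against 0.48% and 0.567% of all genes.

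The counts rested also on the model and on the scaling. With the FPKM as deposited but no trend of the variance with the level in eBayes, 0 members passed in limma in GL261, B16 or the joined tumor group, with 9, 0 and 6 at an unadjusted p under 0.05, while 1.97%, 1.7% and 2.33% of all genes rose. The FPKM as deposited summed to more in tumor-associated libraries. Scaled to equal sums, the libraries gave 4 members that rose in GL261 (4.76%, against 1.74% of all genes) and 1 in B16 (1.19%, against 1.44%), and the median difference of all genes fell from 0.23 to 0.02 in GL261. The members then had a median difference of 0.45 in GL261 and 0.27 in B16. With the sums set equal without the Ccl21 copies, 1 member rose in GL261 (1.19%) and 0 in B16, which is below the 1.46% and 1.34% of all genes that rose, and the median difference was 0.30 for the members and -0.11 for all genes in GL261, and 0.15 and 0.002 in B16. Under quantile normalization 0 members passed in GL261 (20 at an unadjusted p under 0.05), against 1.88% of all genes, and 2 in B16 (2.38%), against 1.4%, with a median difference of 0.31 and 0.12 for the members and 0.03 for all genes in each. With the log2 of the aligned reads as a covariate 0 members passed in either comparison, and 2 genes of the whole table passed in GL261 and 5 in B16. Relative to all genes the members thus stood higher in GL261 under each of these scalings. The excess of members that passed over the share of all genes was lost in GL261 with the Ccl21 copies left out, under quantile normalization and without the trend. In B16 it was lost with equal sums, with the Ccl21 copies left out and without the trend. It was also lost there with Rnu12 and the Ccl21 copies left out (1.19% against 1.38%) and with the replicate number as a block (1.19% against 1.21%). With the covariate too few genes of the whole table passed for an excess to be seen or lost. Rpl32 kept its call in GL261 in 22 of 25 alternative fits, Rps18 in 20, Rpl36a in 19 and Rpl41 in 19, and no member that had passed changed its sign in any of them.

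**Figure D4:**
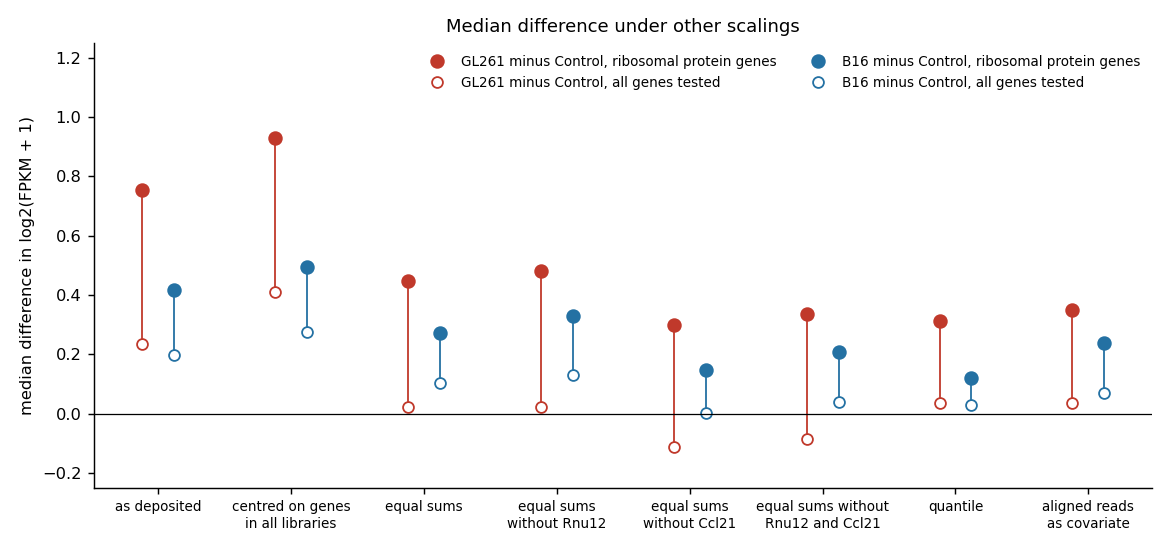
Median difference in log2(FPKM + 1) of the ribosomal protein genes (filled) and of all genes tested (open) between GL261 and Control and between B16 and Control, for the FPKM as deposited and 7 other scalings or models. The filled points lie above the open points in every setting drawn, and both move with the setting.

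Members with a short coding sequence differed more than those with a long one. Of the 76 core members 75 had a coding length in the GENCODE M1 annotation of mm9, and Rpl41 had no entry there under its name. Between GL261 and Control the median difference was 0.83 for the 8 core members with a coding length under 300 bases, 0.90 for the 27 from 300 to under 450, 0.67 for the 19 from 450 to under 600, 0.58 for the 18 from 600 to under 900 and 0.39 for the 3 with 900 or more. The genes outside the list had medians of 0.31, 0.58, 0.48, 0.30 and 0.15 in the same classes, and those of them with a mean of at least 100 FPKM had 0.35, 0.50, 0.38, 0.18 and 0.12. In every class the core members were above the other genes, and in both the shortest class did not continue the order. Spearman's rho between coding length and difference was -0.49 across the 75 core members and -0.13 across 8904 other genes for GL261 minus Control, and -0.26 and -0.07 for B16 minus Control. These are descriptions across genes that share the same libraries, and the part of length in the result was not tested. Without the 12 members whose protein has fewer than 100 residues, the sum still exceeded that of Control by 53688 FPKM in GL261 and by 25621 in B16, and no groups overlapped.

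**Figure D5:**
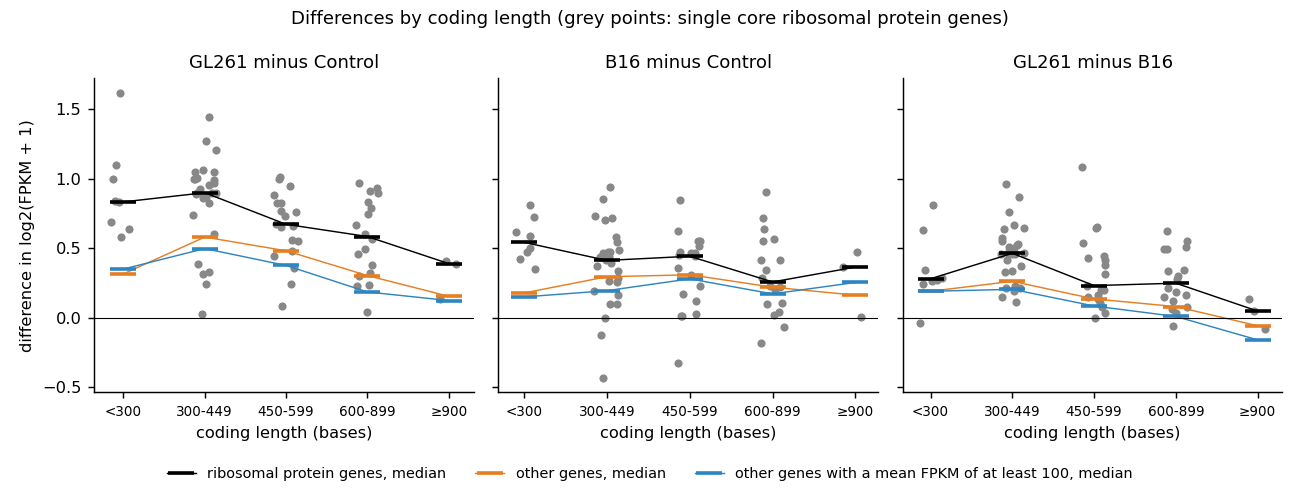
Difference in log2(FPKM + 1) by coding length in bases for GL261 minus Control, B16 minus Control and GL261 minus B16. Grey points are single core members, and short lines are medians of the core members (black), of all other genes tested (orange) and of other genes with a mean of at least 100 FPKM (blue); the black line lies above both others in each class of the left panel.

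The paralogs differed widely in their level relative to their parent genes. Rpl22l1 was the main form of its pair: Rpl22 was at 118, 84.0 and 66.2 FPKM in Control, 108, 102 and 119 in GL261 and 94.0, 83.2 and 83.3 in B16 libraries, and Rpl22l1 at 828, 775 and 1110, at 756, 1326 and 1271, and at 722, 882 and 649. Rpl22l1 thus held 90.7% ± 3.4 of the FPKM of the pair in Control, 90.6% ± 2.8 in GL261 and 89.5% ± 1.6 in B16 MLECs. These shares lay within the SD of each other, and neither gene passed the test in any comparison (Rpl22l1 0.28 ± 0.26 in GL261, adjusted p = 0.641, and -0.26 ± 0.26 in B16, adjusted p = 0.700, limma). Rpl36al held 35.5% ± 10.5 of its pair in Control, 35.4% ± 3.9 in GL261 and 41.2% ± 5.6 in B16, and Rps27l, a target of p53, held 10.5% ± 2.3, 9.48% ± 3.44 and 8.20% ± 2.60 of its pair with Rps27. Rps4l was listed at 0, 180 and 89.5 FPKM in Control, 238, 211 and 163 in GL261 and 90.0, 195 and 302 in B16 libraries. Its difference of 3.00 ± 1.46 between GL261 and Control was the largest of any member, with 1 Control library at 0, and did not pass (adjusted p = 0.334, limma).

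The other paralogs were low. Rpl7l1 was between 9.39 and 51.0 FPKM, and Rpl37rt was between 9.47 and 37.0. Rpl39l, known from the testis, was listed at 26.3, 50.6 and 26.9 FPKM in 1 library of each group and at 0 in the other 6. Rpl3l, known from heart and skeletal muscle, was above 0 in 1 GL261 library only (1.88 FPKM), as was Rpl10l, known from the testis (0.166 FPKM). Of the 87 members 82 were above 0 in all 9 libraries, among them all 76 core members. Rps19bp1 was at 31.9, 52.3 and 47.6 FPKM in Control, 52.4, 34.7 and 14.5 in GL261 and 19.1, 0 and 51.4 in B16 libraries, and was the only tested member with a negative difference between GL261 and Control (-0.51 ± 1.18, adjusted p = 0.871, limma).

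Proteins of the ribosome whose gene names fall outside the rule were also compared. Fau, whose product is cleaved to the small subunit protein eS30, was at 2382, 2479 and 2418 FPKM in Control, 3539, 3644 and 3693 in GL261 and 3439, 3833 and 3371 in B16 libraries. All tumor-associated libraries were above all Control libraries, and Fau rose in GL261 by 0.58 ± 0.13 (adjusted p = 0.0333, limma). Rpsa, named after its values were seen, was 0.65 ± 0.37 above Control in GL261 (adjusted p = 0.407). Rn45s, the precursor of the ribosomal RNAs, was also named after its values were seen and ranged from 5697 to 7453 FPKM in Control, from 18940 to 19953 in GL261 and from 12258 to 16056 in B16 libraries, in 3 separate ranges. It rose by 1.52 ± 0.13 in GL261 (adjusted p = 0.000174) and by 1.07 ± 0.13 in B16 (adjusted p = 0.00206). Reverse transcription was primed on poly(A), so that the level of Rn45s is that of the part captured in this way.

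Other groups of the translation machinery are given by their counts beside the 2.58% of all tested genes that rose in GL261 and the 1.61% that rose in B16, and the median difference of all genes was 0.23 and 0.20. Of 8 tested elongation factor genes 0 passed in limma in any comparison. Their median difference was 0.32 in GL261, with 6 of 8 positive, and 0.28 in B16. Eef1a1, the most abundant of them, was at 3325, 2710 and 3170 FPKM in Control and 3388, 3456 and 3307 in GL261 libraries, with overlapping groups (0.15 ± 0.14, adjusted p = 0.652). Eef1b2 was at 111, 121 and 196 FPKM in Control and 242, 274 and 236 in GL261 libraries, without overlap (0.85 ± 0.32, adjusted p = 0.187). Of 42 initiation factor genes and of 20 aminoacyl-tRNA synthetase genes 0 passed, with median differences between GL261 and Control of 0.20 and 0.81, the latter also above that of the ribosomal protein genes. Of 47 tested ribosome biogenesis genes 1 rose in GL261 and in B16, Gar1, of the H/ACA particle, with 0 FPKM in every library of Control and between 7.56 and 23.9 FPKM in the tumor-associated ones. Gar1 thus met the filter of 1 FPKM in 3 libraries only through the groups where it is high, and its call is a description. The median difference of the biogenesis genes was 0.83 in GL261, above the 0.75 of the ribosomal protein genes, and -0.06 in B16. Of 77 mitochondrial ribosomal protein genes 2 rose in GL261, Mrpl20 (1.497 ± 0.355, adjusted p = 0.0422) and Mrps5 (3.69 ± 0.88, adjusted p = 0.0424), and the median difference of the 77 was 0.37. Mrps5 was listed at 0, 3.97 and 0 FPKM in Control and at 28.6, 13.7 and 23.7 in GL261 libraries. It too met the filter through the tumor-associated libraries. Of 17 tested genes of the mTOR and S6 kinase pathway 0 passed in limma, with a median difference of -0.24 between GL261 and Control and 0.13 between B16 and Control.

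Markers of other cell types were counted in the same libraries, and their part in the result was not tested. In libraries of 10 cells, fewer cells of a type and less RNA per cell cannot be told apart. The 11 lymphatic endothelial markers summed to between 13750 and 17367 FPKM in Control, between 1478 and 3323 in GL261 and between 2633 and 7144 in B16 libraries. Most of the Control sum came from 3 copies of Ccl21, and the other 8 genes summed to between 2809 and 3289 FPKM in Control, between 1200 and 2674 in GL261 and between 1412 and 2957 in B16 libraries, with an overlap of B16 and Control. Of 10 tested, 4 fell in GL261 (Flt4, Ccl21c, Mmrn1 and Reln) and 1 in B16 (Mmrn1), against 0.904% and 0.502% of all tested genes. Pecam1 (0.52 ± 0.31 in GL261 and 0.81 ± 0.31 in B16) and Cdh5 (0.40 ± 0.42 and 0.49 ± 0.42), which blood endothelium also expresses, had positive differences that did not pass. Lyve1, a stain of the sort by the labels, was at 1705, 1250 and 974 FPKM in Control, 777, 660 and 1709 in GL261 and 1895, 628 and 911 in B16 libraries. Pdpn, in the gate that the study describes, was at 147, 316 and 372, at 42.9, 32.0 and 218, and at 247, 57.5 and 142 FPKM. It did not pass (-1.93 ± 0.73 in GL261, adjusted p = 0.193, limma). Prox1, which defines the lymphatic lineage, was at 20.9 to 42.2, 1.87 to 16.5 and 2.37 to 3.72 FPKM. The 10 blood endothelial markers summed to between 2370 and 3369 FPKM in Control, between 7945 and 16104 in GL261 and between 6759 and 8999 in B16, and 6 of 10 rose in each tumor group, while 1 fell in GL261. Among these 10 blood endothelial genes, all of them tested, Ly6c1 was listed at 0 in every Control library. Ly6c1 met the filter of 1 FPKM in 3 libraries only through the tumor-associated ones, and any call of it is a description. The 14 leukocyte markers summed to at most 351 FPKM in a library, and Ptprc, which encodes CD45, was listed at 0 in all 9 libraries. The 10 fibroblast and mural cell markers summed to 16.2 to 532 FPKM in Control and to at most 11.4 in tumor-associated libraries, and the 1 of them that was tested, Dcn, fell in both tumor groups. The 7 melanoma markers summed to at most 4.07, the 12 glial and neural markers to at most 14.5 and the 7 red cell genes to at most 9.15 FPKM, and Mlana, Tyr, Tyrp1, Gfap and Sox2 were listed at 0 in all 9 libraries.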

How the data were processed

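RNA-seq was compared in 9 libraries of MLECs, 3 per group, with groups and replicate numbers from the sample labels. The authors aligned the reads to mm9 with TopHat2 2.0.12 and deposited the FPKM that Cufflinks 2.2.1 gave for each gene and library, which were not scaled further between libraries. The annotation they used is not given in the sources used here. The file holds no read counts, so no count model was fitted and no counting error can be given for a value.

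Genes with at least 1 FPKM in at least 3 libraries were tested on log2(FPKM + 1), a scale that understates the change of low genes, with limma 3.58.1 in R 4.3.3 (eBayes with a trend). All 9 libraries entered 1 fit of 3 groups, and GL261 and B16 were joined in a second fit of tumor against Control. No test was made on sums, shares or medians over members. The alternatives were other pseudocounts, filters, scalings, eBayes settings, a replicate block, aligned reads as a covariate and leaving out each library.

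The members, the gene lists and the rule for named genes were chosen with earlier results of these data known. Named were the 5 highest and 5 lowest core members, up to 12 members past the threshold with the largest difference per comparison, the 5 largest and 5 smallest differences, and fixed names (the P stalk, Rps6, Rps27a, Rpl41, Rpl22, Rps4x, the paralogs and Rps19bp1). Rpl37rt was placed among the paralogs after seeing the table. Gene positions and coding lengths came from GENCODE M1, where 86 of the 87 members matched by symbol or synonym, and promoters from RefSeq, with the first listed start per gene. Summaries and plots used Python 3.11.15, pandas 2.3.3, scipy 1.17.1 and matplotlib 3.10.9.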

Additional observations from a re-analysis of the deposited data

How the results depend on the processing

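Of the members that rose in GL261, 356 of 750 calls over the 25 alternative fits were kept, of those in B16 52 of 100 and of those in the joined tumor group 188 of 350, and 0 changed sign. The members that rose in GL261, B16 and the joined tumor group are counted next, with the share of all tested genes that rose in parentheses. For comparison, 1 of 84 members is 1.19%. They numbered 4, 1 and 5 with equal sums (1.74%, 1.44% and 2.11%). With equal sums without Ccl21 they were 1, 0 and 1 (1.46%, 1.34% and 1.88%). Without Rnu12 and Ccl21 they were 2, 1 and 4 (1.57%, 1.38% and 2.02%), and without the members as well 4, 2 and 6 (1.7%, 1.47% and 2.15%). Quantile normalization gave 0, 2 and 3 (1.88%, 1.4% and 2.39%), and no minimum FPKM 15, 1 and 7 (1.17%, 0.826% and 1.37%). There were 0, 0 and 0 without the trend in eBayes (1.97%, 1.7% and 2.33%). Aligned reads as a covariate also gave 0, 0 and 0 (0.0201%, 0.0402% and 0.0804%). Without GL261 replicate 2 and B16 replicate 1 they were 2, 1 and 7 (0.48%, 0.567% and 2%). With equal sums without Rnu12 they numbered 9 in GL261 (1.84%) and 8 in the joined group (2.24%). After centring on genes present in all libraries 46 rose in GL261 (3.3%). Between GL261 and B16 0 passed in any of the 25, where at most 0.0416% of all tested genes were higher in GL261. Leaving out 1 library gave 5 to 29, 1 to 5, 0 to 0 (GL261 against B16) and 5 to 19. The share of all tested genes that rose was then 0.787% to 3.09%, 0.634% to 2.49%, 0.0103% to 0.0416% and 1.89% to 3.77%. Where not given here or in the text, the cause was not tested.

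With the replicate number as a block, 17, 1 and 7 members rose, against 1.76%, 1.21% and 2.28% of all tested genes. The correlation of deviations from the group means of same-numbered libraries was between -0.0334 and 0.0443 over 9 pairs, with 0 above 0.1. These values show no pairing by number but cannot exclude one in libraries of few cells.

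The median difference of the members in GL261 was 0.45 with equal sums, 0.30 without Ccl21, 0.48 without Rnu12, 0.33 without both, 0.42 without the members as well, 0.31 after quantile normalization, 0.93 after centring and 0.35 with aligned reads. In B16 it was 0.15 without Ccl21, 0.21 without Rnu12 and Ccl21 and 0.12 after quantile normalization, between GL261 and B16 0.15, 0.13 and 0.13, and in the joined group 0.21, 0.26, 0.19 and, with aligned reads, 0.16. Leaving out 1 library gave 0.69 to 0.81, 0.32 to 0.43, 0.28 to 0.40 and 0.51 to 0.64.

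The sums differed by 53688 (GL261 minus Control), 25621 (B16 minus Control) and 28066 FPKM (GL261 minus B16) without proteins under 100 residues, and by 90659 and 48498 for GL261 minus Control and minus B16 after centring. Without 1 library the ranges were 67880 to 76854, 31681 to 40801 and 32102 to 40095 FPKM. The share in GL261 exceeded Control by 4.07 percentage points without short proteins, 4.05 without Ccl21 in the total, 4.60 without Rnu12 and Ccl21 and 7.32 over genes present in all libraries, and in B16 by 2.08 without Ccl21. Without 1 library it was 5.19 to 6.34, 2.90 to 4.24 and 1.502 to 2.87. No direction reversed. With no counts deposited, the depth behind each FPKM value is unknown.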
